A study of Mus musculus with 2 samples.

Results

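The 5 miRNA genes described here, Mir335, Mir483, Mir675, Mir296 and Mir298, lie in imprinted loci other than the Dlk1-Dio3 region, and they were 5 of the 1973 miRNA genes counted in the series. They were chosen by location and not by their values, though with earlier results of these data known. Mir335 lies in Mest, Mir483 in Igf2, Mir675 in H19, and Mir296 and Mir298 in the Gnas domain, each found by its Ensembl identifier. The series held 1 group, forebrain of B6NCrl mouse embryos at embryonic day 12.5, with 2 biological replicates that were pools of male and female embryos, 120 embryos in replicate 1 and 68 in replicate 2. Small RNA under 30 nt was sequenced. No genotype, treatment or second age was compared, so the question the data can answer is how much of each miRNA the tissue held and how far the pools differed. Each pool gave 1 library, so differences between embryos, dissection, library preparation and sequencing cannot be told apart, and in bulk tissue fewer cells of a type and less RNA per cell cannot be told apart either.

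Imprinted genes are expressed mainly from the copy inherited from 1 parent, under the control of DNA methylation set in the germ line, and many of them act on growth and on brain development. A miRNA gene inside such a locus is transcribed with, or near, the imprinted transcript, and its hairpin is cut into mature strands of about the length sequenced here, which pair through their seed with target messenger RNAs and lower their output. Mest and Igf2, the host genes of Mir335 and Mir483, are expressed from the paternal copy in most tissues. H19, the long non-coding RNA that carries Mir675, is expressed from the maternal copy. In mouse, Mir296 and Mir298 are made from the paternal copy of the Gnas domain, on the strand of the antisense transcript Nespas. The counts hold no parental information.

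The mature strands are shown because the seed, bases 2 to 8 in capitals, decides which targets a miRNA pairs with. All 5 genes matched an entry of RefSeq (GRCm38.p6, the build of mm10), which lists a 5p and a 3p strand for each, given 5′ to 3′.
mmu-miR-335-5p: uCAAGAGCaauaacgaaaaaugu
mmu-miR-335-3p: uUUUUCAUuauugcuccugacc
mmu-miR-296-5p: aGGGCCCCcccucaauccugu
mmu-miR-296-3p: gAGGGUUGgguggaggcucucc
mmu-miR-298-5p: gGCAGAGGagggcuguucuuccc
mmu-miR-298-3p: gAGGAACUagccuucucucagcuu
mmu-miR-483-5p: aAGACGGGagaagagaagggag
mmu-miR-483-3p: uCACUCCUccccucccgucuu
mmu-miR-675-5p: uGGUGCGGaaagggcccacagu
mmu-miR-675-3p: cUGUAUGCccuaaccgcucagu

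The 10 strands carry 10 different seeds, so the 5 genes form no seed family. No strand of another gene among the 1738 mature strands of the RefSeq table has any of these seeds. The strands of miR-335 are rich in A and U, with 30.4% G and C in the 5p strand and 36.4% in the 3p strand, while the other 8 strands hold between 50.0% and 68.2%. The gene counts sum both strands of a hairpin, so the shares of the 5p and 3p strands were not separable here.

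The hairpins show where those strands sit, with the mature strands in capitals and the rest of the precursor in lower case.
Mir335 hairpin: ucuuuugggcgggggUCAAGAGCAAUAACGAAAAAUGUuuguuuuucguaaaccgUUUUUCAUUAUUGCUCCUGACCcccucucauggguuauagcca
Mir296 hairpin: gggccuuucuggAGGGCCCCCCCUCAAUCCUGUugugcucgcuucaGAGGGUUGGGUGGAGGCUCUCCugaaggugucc
Mir298 hairpin: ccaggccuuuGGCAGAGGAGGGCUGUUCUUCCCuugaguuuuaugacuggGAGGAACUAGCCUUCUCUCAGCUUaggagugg
Mir483 hairpin: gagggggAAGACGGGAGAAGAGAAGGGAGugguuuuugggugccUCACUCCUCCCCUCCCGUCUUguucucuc
Mir675 hairpin: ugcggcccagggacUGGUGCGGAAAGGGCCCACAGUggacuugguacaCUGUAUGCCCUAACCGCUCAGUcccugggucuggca

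Folded with RNAfold, the Mir675 hairpin had a minimum free energy of -56.0 kcal/mol, lower than all but 22 of the 1005 RefSeq hairpins folded in the same way, whose median was -32.0 kcal/mol. The other 4 also lay below that median, Mir335 at -44.3, Mir296 at -43.2, Mir298 at -42.7 and Mir483 at -33.8 kcal/mol. Per base, the energy was -0.67 kcal/mol for Mir675 and -0.45 for Mir335, against a median of -0.41 over all hairpins. The G and C content was 42.9% in the Mir335 hairpin and 63.3% in that of Mir296, with a median of 51.7% over all hairpins. Between 73.5% and 78.5% of the bases of each of the 5 hairpins were paired, against a median of 69.0%. These features describe the precursors and were not set against the counts.

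**Figure D1:**
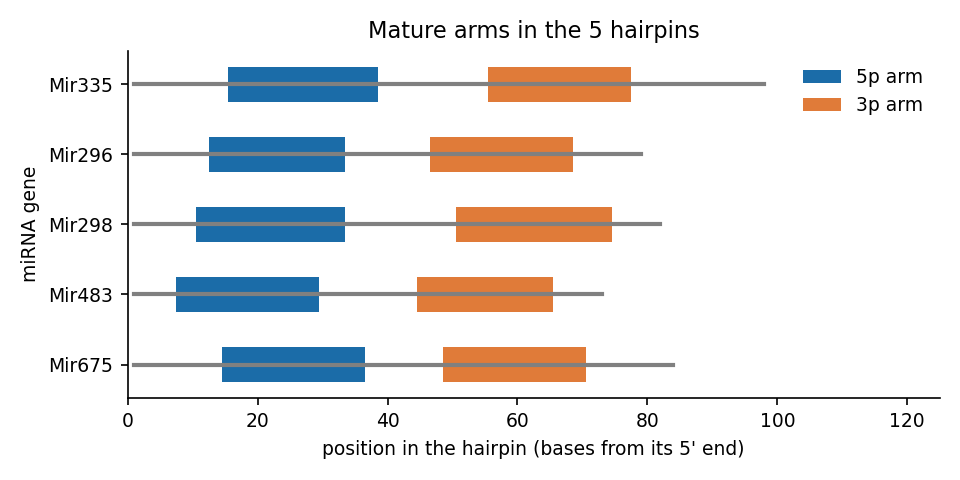
Position of the mature strands in each hairpin, in bases from its 5′ end; the grey line is the precursor, the blue block the 5p strand and the orange block the 3p strand. The precursors run from 73 bases for Mir483 to 98 bases for Mir335, and the strands are 21 to 24 bases long.

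None of the 5 hairpins shared a stretch of 20 bases with any of the 2201 other miRNA hairpins of GENCODE M21, and none shared 18 bases. Reads that match several places in the genome stand outside the gene counts in these tables. Those reads made up 37.9% of each library. Within the annotated hairpins no copy of the 5 genes was present that would move their reads there, and the rest of the genome was not searched. Reads on the strand opposite to the hairpin numbered 3 in each library for Mir335 and 0 for the other 4 genes.

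The libraries held 11104730 reads in replicate 1 and 11154304 reads in replicate 2, and 4333194 and 4397107 of them fell on the strand of a counted miRNA gene, the assigned reads. A level in CPM is a count per 1000000 assigned reads. For a gene with 0 reads the data allow up to 0.692 CPM in the first library and 0.682 CPM in the second, and this limit and the intervals below cover counting error only. The neural miRNA list had 7 of its 9 counted genes at 10 reads or more in each library and was led by Mir137 at 5207 ± 112 CPM (SD, n = 2). It held 0.956% of assigned reads in replicate 1 and 0.870% in replicate 2, less than the endothelial Mir126a alone at 1.66% and 2.12%. Some of its genes share 20 bases with another hairpin and Mir9-1 has no row, so its share is uncertain and may be too low. Whether it would lie below Mir126a with reads that match several places counted was not tested. The list shows that neural miRNAs were present and does not measure the make-up of the tissue.

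By assigned reads the 5 genes were spread widely in level, from Mir335 at place 2 among counted miRNA genes to Mir675 at place 285. The mean CPM of Mir335 was 3388 times that of Mir675. These places and the shares below leave out reads that match several places, 4213961 in replicate 1 and 4224434 in replicate 2. Those totals are close to the assigned reads. Other miRNA genes with near copies may have lost reads in this way, so the 5 genes could stand lower in place and share. How far was not tested. In order, Mir335, Mir296, Mir298, Mir483 and Mir675 followed each other in both libraries, and no range of a gene met that of the next. Of the genes named below for lying next to them in level, Mir138-1, Mir466n and Mir23a each share a stretch of 20 bases with another hairpin, as do Mir487b and Mir467c, so the levels of these are uncertain. The genes of 1 domain were close in level in the Gnas domain, where Mir296 exceeded Mir298 by 1.22-fold in mean CPM, and far apart in the H19 and Igf2 domain, where Mir483 exceeded Mir675 by 14.7-fold. The reads come from short mature strands and not from the whole precursor. Per 100 bases of hairpin the order was unchanged, with 78704 CPM for Mir335, 8282 for Mir296, 6564 for Mir298, 457 for Mir483 and 27.1 for Mir675.

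**Figure D2:**
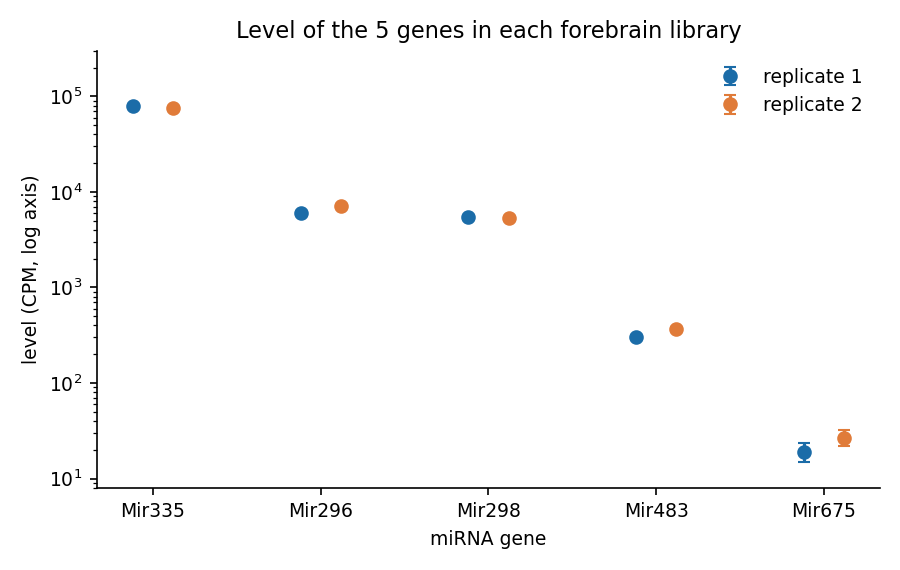
Level of each gene in CPM on a log axis, with replicate 1 in blue and replicate 2 in orange; bars are exact Poisson 95% intervals of the count and are smaller than the points except for Mir675. The 5 genes keep their order in both pools, from Mir335 at 78896 and 75364 CPM to Mir675 at 18.9 and 26.6 CPM.

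Mir335 (ENSMUSG00000065501.1) lies on the plus strand of chromosome 6, from 30741299 to 30741396 of mm10, and was intronic in each of the 7 Mest transcripts that span it, 17752 bases from the 5′ end of the gene. In human cells miR-335 has been described as a suppressor of migration and metastasis. It was read 341870 times in replicate 1 and 331382 times in replicate 2, or 78896 and 75364 CPM. The mean was 77130 ± 2497 CPM (SD, n = 2), and by assigned reads it stood at place 2 in both libraries. Above it stood only Mir99a at 126269 ± 10384 CPM, and below it Mir17, a miRNA linked to proliferation of progenitor cells, at 60649 ± 595 CPM. Neither of these neighbours overlapped Mir335 in range.

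Mir335 alone held 7.89% of assigned reads in replicate 1 (95% exact binomial interval 7.86% to 7.91%) and 7.54% in replicate 2 (7.51% to 7.56%). It made up 86.3% of the reads of the 5 genes. Its level was 14.5 times that of Mir298 in replicate 1 and 14.1 times in replicate 2, so its distance from Mir298 was much the same in both pools.

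**Figure D3:**
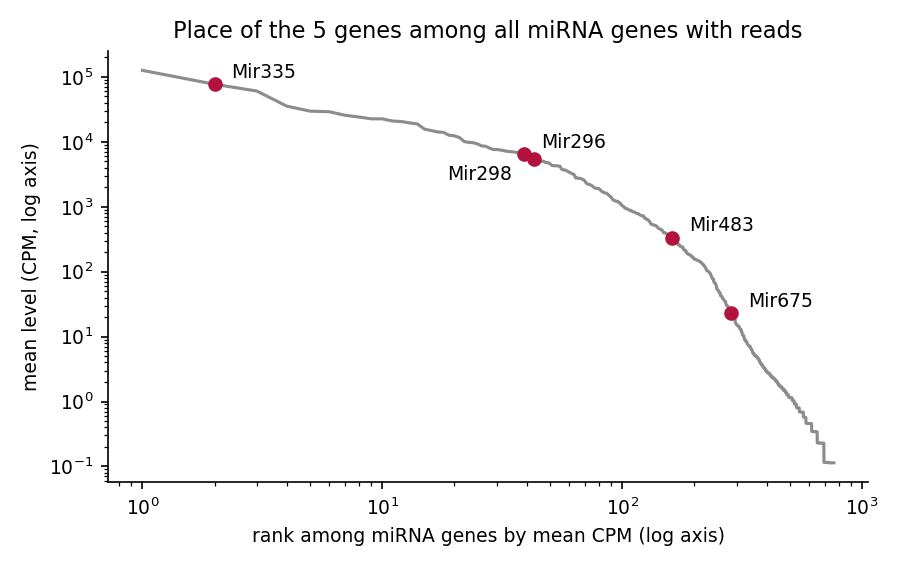
Mean CPM of every miRNA gene with reads against its rank, both on log axes, with the 5 genes as red points. By assigned reads Mir335 sits at rank 2, Mir296 and Mir298 at ranks 39 and 43, Mir483 at 162 and Mir675 at 285.

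Mir296 and Mir298 lie next to each other on the minus strand of chromosome 2, Mir296 (ENSMUSG00000065521.1) from 174267047 to 174267125 and Mir298 (ENSMUSG00000065410.1) from 174267504 to 174267585, with 378 bases between them. No other gene of GENCODE M21 overlapped either. The nearest annotated end of Nespas, its 3′ end on the same strand, was 13651 bases from Mir298, and the 5′ end of Gnas, on the plus strand, was 16734 bases away. In mouse embryonic stem cells miR-296 has been described as acting on pluripotency factors, and in mouse miR-298 as acting on the beta-secretase Bace1.

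Mir296 had 25943 reads in replicate 1 and 31210 in replicate 2, or 5987 and 7098 CPM. Its mean of 6542 ± 785 CPM (SD, n = 2) lay between those of Mir151 at 6769 ± 33.4 CPM and Mir652 at 5959 ± 294 CPM, and its range overlapped both. Mir298 had 23533 reads in replicate 1 and 23453 in replicate 2, or 5431 and 5334 CPM. Its mean of 5382 ± 68.7 CPM lay between Mir23a at 5648 ± 552 CPM, with which its range overlapped, and Mir137, with which it did not. Mir296 was thus the more variable gene of the pair, and Mir298 nearly level between the pools.

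Of the reads of this pair, Mir298 took 47.6% in replicate 1 (95% exact binomial interval 47.1% to 48.0%) and 42.9% in replicate 2 (42.5% to 43.3%). The intervals did not meet, so the make-up of the pair differed between the libraries beyond counting error. Against other miRNA genes at most 1000 bases apart on the same strand, with both genes at 10 CPM or more, Mir296 and Mir298 were close in level. Their mean levels differed by 0.28 on the log2 scale, where the median over 61 such pairs was 2.76 and 7 pairs were closer. The shift of their ratio between the libraries was 0.27 on the log2 scale, where the median was 0.13 and 17 pairs shifted more. Some of these pairs hold a gene that shares 20 bases with another hairpin, and reads that match several places are outside the counts. The median of 2.76 is therefore uncertain, and pairs without such genes were not set apart. The pairs also come partly from the same clusters and are given as a description.

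Mir483 (ENSMUSG00000070140.1) lies on the minus strand of chromosome 7, from 142654924 to 142654996, intronic in all 7 Igf2 transcripts that span it and in the 1 transcript of the overlapping gene Gm49394. Igf2 encodes a fetal growth factor, and in human tumours that express IGF2 highly miR-483 is often high too. Mir483 had 1313 reads in replicate 1 and 1602 in replicate 2. These were 303 CPM (95% exact Poisson interval 287 to 320) and 364 CPM (347 to 383). The mean was 334 ± 43.4 CPM (SD, n = 2), next to Mir138-1 at 340 ± 5.71 CPM and Mir221 at 320 ± 50.8 CPM, both of which overlapped it in range.

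Mir675 (ENSMUSG00000076275.1) lies 77776 bases away on the same strand, from 142577064 to 142577147, 996 bases from the 5′ end of H19. It is the only one of the 5 hairpins inside an exon, in 3 of the 4 H19 transcripts that span it. Both of its mature strands are contained in spliced H19 RNA, and no other gene among the GENCODE M21 transcripts holds them. The tables give no read length or start, so short pieces of H19 from this window and cut miR-675 were not separable. In mouse placenta miR-675 has been described as limiting growth and acting on the Igf1 receptor. Mir675 was read 82 times in replicate 1 and 117 times in replicate 2.

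The counts of Mir675 came to 18.9 CPM in replicate 1 (95% exact Poisson interval 15.1 to 23.5) and 26.6 CPM in replicate 2 (22.0 to 31.9). These intervals overlapped, and both stood far above the limit for a gene with 0 reads. The mean of 22.8 ± 5.43 CPM (SD, n = 2) lay between Mir466n at 23.3 ± 1.70 CPM and Mir34b at 22.5 ± 2.50 CPM, and its range overlapped both. In the H19 and Igf2 domain, Mir675 took 5.88% of the reads of the pair in replicate 1 (95% exact binomial interval 4.70% to 7.24%) and 6.81% in replicate 2 (5.66% to 8.10%). Unlike in the Gnas pair these intervals overlapped. Overlap of intervals is not a test, so they do not show whether this pair shifted between the libraries. Whether the pairs differ in this was not tested.

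All 5 genes differed by less than 2-fold between the pools. Fisher's exact test on the reads of the libraries, with Benjamini-Hochberg adjustment over the 511 genes with at least 10 reads in both together, compares these libraries and not conditions, and p-values reflect counting error only. By this test 3 of the 5 genes differed, against 32.7% of all tested genes. Mir335 was higher in replicate 1, where 12.5% of tested genes were higher. Mir296 and Mir483 were lower in replicate 1, where 20.2% of tested genes were lower. With a 2-fold minimum none of the 5 was called, against 2.74% of tested genes. With 5 genes, the shares say little beyond the single values.

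Mir335 had a log2 ratio of CPM + 1, replicate 1 over replicate 2, of 0.07 (adjusted p = 1.07e-83, Fisher's exact test), a difference of 1.05-fold that its depth made visible. For Mir296 the ratio was -0.25 (adjusted p = 1.15e-90, Fisher's exact test) and for Mir483 -0.27 (adjusted p = 3.88e-06, Fisher's exact test). Among 321 genes of at least 10 CPM the median absolute log2 ratio was 0.15. The ratio of Mir335 was smaller in size than that median, and those of Mir296 and Mir483 were larger, with 222 and 232 of the 321 genes below them.

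Mir675 had the widest ratio of the 5, -0.47, with 282 of 321 genes below it in size, and missed the threshold (adjusted p = 0.0572, Fisher's exact test). It passed when the test was limited to 403 genes with at least 10 reads in each library (adjusted p = 0.0462, Fisher's exact test). Mir298 stood at 0.03 (adjusted p = 0.126, Fisher's exact test), with 32 of 321 genes below it in size. It passed with edgeR's TMM library sizes, at 0.07 (adjusted p = 1.06e-06, Fisher's exact test), and with DESeq2 size factors, at 0.05 (adjusted p = 9.73e-04, Fisher's exact test). The median ratio of the 5 genes was -0.25, the value of Mir296, against -0.04 over all tested genes. It does not describe the 5 genes as a group. Mir335 and Mir298 had positive ratios, and the 5 genes together held 9.06% of assigned reads in replicate 1 and 8.82% in replicate 2.

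**Figure D4:**
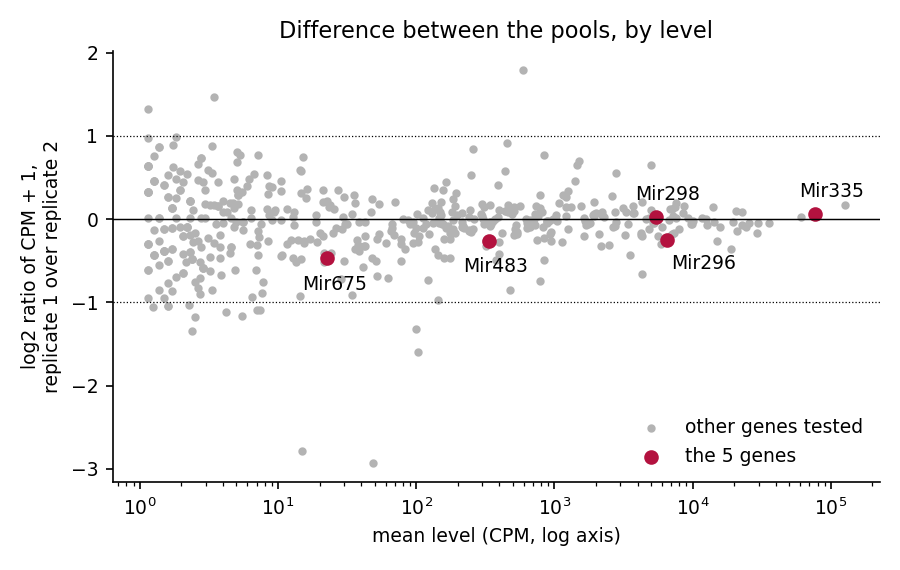
Log2 ratio of CPM + 1, replicate 1 over replicate 2, against mean CPM on a log axis for the 511 tested genes in grey, with the 5 genes in red; dotted lines mark a 2-fold difference. All 5 genes lie inside the dotted lines, Mir335 and Mir298 next to 0 and Mir675 lowest at -0.47.

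Lists of miRNAs for other cell types also differed in share between the pools, and their part in the values of the 5 genes was not tested. Of the 5 genes, Mir335 was called higher in replicate 1, and Mir296 and Mir483 lower. Mir675 and Mir298 were not called. Mesenchymal and mural miRNAs, all 7 with at least 10 reads in each library and led by Mir143, held 1.33% of assigned reads in replicate 1 and 1.61% in replicate 2. The endothelial Mir126a held 1.66% and 2.12%, choroid plexus and multiciliated miRNAs, 6 of 6 detected and led by Mir449a, 0.457% and 0.692%, and leukocyte miRNAs, 3 of 3 counted and led by Mir155, 0.0373% and 0.0452%. Muscle miRNAs, led by Mir206, held 0.000323% and 0.00266%, and their defining genes Mir133a-1 and Mir133a-2 had 0 reads. As reads that match several places are outside the counts, these values of 0 do not show that the miRNA was absent. By Fisher's exact test 6 of the 7 mesenchymal and mural, 3 of the 6 choroid plexus and multiciliated and 1 of the 3 leukocyte genes were lower in replicate 1, and none was higher. Of all tested genes the test called 20.2% lower and 12.5% higher in replicate 1, so single calls in the short lists say little. The epithelial list, 5 of 5 detected and led by Mir429, held 1.10% in replicate 1 and 0.663% in replicate 2, and all 5 genes were higher in replicate 1 by that test. Each of these 5 genes lies within 1000 bases of another of them on the same strand, so the calls are not independent. Some mesenchymal and mural genes share 20 bases with another hairpin, so their calls and share are uncertain. The liver and islet list, 2 of 2 detected and led by Mir375, held 0.0453% in replicate 1 and 0.0340% in replicate 2, with 1 gene higher. In the erythroid and neural lists the summed share and the single genes went apart. The erythroid list held 0.0318% in replicate 1 and 0.0238% in replicate 2, but Mir451a made up 89.2% of it, and of its 2 genes 1 was called higher and 1 lower in replicate 1. The neural list held 0.956% in replicate 1 and 0.870% in replicate 2, but of its 9 genes 1 was called higher and 2 lower, with a median log2 ratio of -0.08.

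Set beside other imprinted miRNA loci, the 5 genes held 8.94% ± 0.173 of assigned reads (SD, n = 2), and the 59 counted genes between Dlk1 and Dio3 on chromosome 12 together held 8.91% ± 0.263. In replicate 1 the shares were 9.06% for the 5 genes and 9.09% for Dlk1-Dio3, and in replicate 2 they were 8.82% and 8.72%, so neither was higher in both libraries. Without Mir335 the other 4 genes held 1.17% in replicate 1 and 1.28% in replicate 2. The part of Dlk1-Dio3 proximal to Rian, 15 genes led by Mir127, held 2.52% and 2.30%. The distal part, 44 genes led by Mir487b, held 6.57% and 6.43%, and the 107 genes inside Sfmbt2, led by Mir467c, held 0.399% and 0.452%. Mir335 took 86.3% of the reads of the 5 genes, and Mir487b took 15.7% of those of Dlk1-Dio3. The 5 genes come from separate loci and are far fewer than the 59 of Dlk1-Dio3, so these shares do not compare how evenly loci spread their reads. A stretch of 20 bases was shared with another hairpin by 0 of the 5 genes, by 3 of the 15 proximal and 5 of the 44 distal Dlk1-Dio3 genes, and by 104 of the 107 Sfmbt2 genes. Reads that match several places are outside the counts, so the shares of the clusters, above all that of Sfmbt2, are uncertain.

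**Figure D5:**
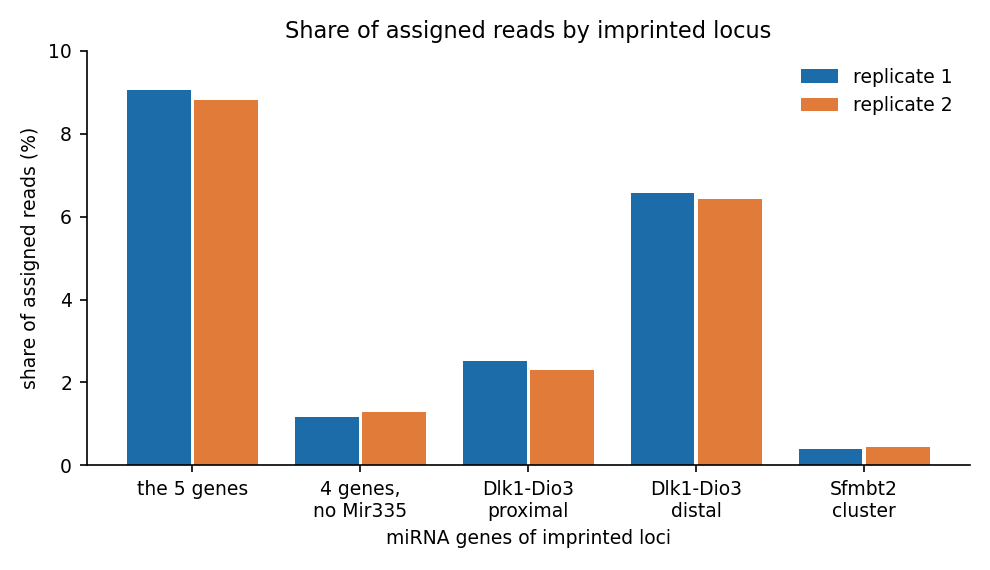
Share of assigned reads in percent held by the 5 genes, by the 4 without Mir335, and by the proximal Dlk1-Dio3, distal Dlk1-Dio3 and Sfmbt2 miRNA genes, with replicate 1 in blue and replicate 2 in orange. The 5 genes reach 9.06% and 8.82%, and without Mir335 1.17% and 1.28%.

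Within 100000 bases of the 5 genes a single further miRNA gene was counted, Gm27591, 19051 bases from Mir296 on the opposite strand. It had 0 reads on either strand in both libraries. No further miRNA gene was counted within that distance of Mir335, Mir483 or Mir675.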

How the data were processed

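MicroRNA sequencing of 2 pools of E12.5 mouse forebrain was analysed. The deposited files hold raw read counts per miRNA gene, not normalised, which the authors made from alignments to mm10 with annotation M4, per the file descriptions deposited with them. The sources used here do not give the aligner, counter or trimming. The table has a count for both strands, for the gene strand and for the opposite strand, as read from the values: the first equalled the sum of the others in all 1973 genes, and 97.3% and 97.2% of it lay on the gene strand. The 4 rows that name no gene, with 61.0% and 60.6% of all reads, entered neither library sizes nor tests.

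Identifiers without version were matched to GENCODE M21 (1894 of 1973). CPM used gene-strand assigned reads, and log ratios log2(CPM + 1). With 1 group, edgeR's quasi-likelihood test had no contrast. Genes whose reads in the libraries summed to at least 10 were compared by a two-sided Fisher's exact test with Benjamini-Hochberg adjustment, called at 0.05. Scaling alternatives used edgeR 4.0.16 and DESeq2 1.42.0, and hairpins were folded with RNAfold 2.7.2. Python 3.11.15, SciPy 1.17.1 and R 4.3.3 were used. The test was checked on simulated counts with counting error only, scored with the 2-fold minimum. That check does not cover the smaller differences called without the minimum.

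The 5 genes and the lists were chosen with earlier results of these data known. Besides the 5, the genes named are those directly above and below each in mean CPM, the most abundant gene and the highest of each list. Mir133a-1, Mir133a-2 and Gm27591 were named after their values were seen, and the comparison of neighbouring pairs was added then. The leukocyte, muscle and neural lists each had 1 gene without a row: Mir146a, Mir1a-2 and Mir9-1.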

Additional observations from a re-analysis of the deposited data

Results flagged for a closer look

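Reads that match several places numbered 4213961 in replicate 1 and 4224434 in replicate 2. They lie outside the gene counts and are listed because they exceed the limit of a count of 0, as any large total would. Groups of 2 libraries are too small for a test of single outlying samples, so none was made for the 5 genes.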

How the results depend on the processing

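The order of the 5 genes was the same per 100 bases of hairpin and in each library alone. Levels changed with the library size. With the most abundant gene, Mir99a, out of it, the mean was 88299 CPM for Mir335, 7483 for Mir296, 6161 for Mir298, 382 for Mir483 and 26.0 for Mir675. With all reads as the library size, it was 30247 for Mir335, 2567 for Mir296, 2111 for Mir298, 131 for Mir483 and 8.94 for Mir675. With both strands counted, the library sizes grew and all 5 means were lower. They were 75024 CPM for Mir335, 6363 for Mir296, 5235 for Mir298, 325 for Mir483 and 22.1 for Mir675. The 5 genes then held 8.70% of reads. Mir675 passed the test between the libraries with at least 10 reads in each library (log2 ratio -0.47, adjusted p = 0.0462) and with all reads as the library size (-0.45, adjusted p = 0.0477), by Fisher's exact test. Mir298 passed with TMM (0.069, adjusted p = 1.06e-06), with DESeq2 size factors (0.049, adjusted p = 9.73e-04) and without Mir99a (0.050, adjusted p = 6.69e-04), by the same test. These settings change the library sizes, the genes tested or both, and not the reads of Mir675 and Mir298. Why the pools differed was not tested. No log2 ratio of the 5 genes changed sign in the alternatives run. No paired analysis was possible because there is 1 group. Depth limits Mir675, with 82 and 117 reads, most.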
